A study of Mus musculus with 36 samples.

Results

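The cell cycle and mitosis genes were followed in RNA-seq counts of whole mouse kidneys from 2 models of collecting duct cyst formation. The gene set held 45 genes, chosen for their roles in DNA replication and cell division, out of 20454 gene symbols that could be paired with the 29996 RefSeq transcripts of the table. For each gene the transcript with the highest mean count was used, and 32 genes remained after those with fewer than 10 counts in most of the 36 libraries were left out. All mice were on a C57BL/6 background. In the Pkd1 model, Pkd1f/f mice (WT) were compared with Pkd1f/f:HoxB7-Cre mice (KO), and in the other model Pkd2f/f mice (WT) with Pkd2f/f:HoxB7-Cre mice (KO), so the control mice of each model also carried the floxed alleles. Each model was sampled at the postnatal ages P1, P3 and P7 (in days) and 3 libraries were made per genotype and age, in 12 groups. HoxB7-Cre is active in the ureteric bud and the collecting duct that grows from it, while the RNA came from the whole kidney, so cells without the deletion contributed to every value.

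Cells enter the cycle when cyclin D and cyclin E kinases release E2F factors, which switch on the genes for replication. MCM proteins form the helicase that opens the DNA, PCNA clamps the polymerase onto it, and ribonucleotide reductase supplies the nucleotides. Later in the cycle cyclin A and cyclin B activate Cdk1, Foxm1 and B-Myb act with the MuvB complex to turn on the mitotic genes, which the DREAM complex holds off in resting cells, Plk1 and the aurora kinases drive the spindle, and Ube2c and Cdc20 work with the anaphase-promoting complex to end mitosis. In the newborn mouse kidney nephrons are still forming, and division slows as the tubules mature. Increased proliferation of the epithelium is a known feature of polycystic kidneys.

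The libraries held between 7179152 and 15850818 counts, with a median of 13143336. Of the 15 members with more than 1 RefSeq transcript in the table, 12 were left out, and of the 30 members with a single transcript only Tyms was, which had 0 counts throughout. The 13 members left out were Mcm5, Cdc6, Cdc45, Tyms, Ccne2, Aurka, Bub1, Ttk, Kif20a, Nusap1, Tpx2, Prc1 and Ect2, none with a mean above 8.5 counts, and nothing is said here of their expression. HTSeq with default options leaves a read uncounted when it matches several features, which applies to the shared exons of a gene with several transcripts in the table. The 3 kept genes with several transcripts were E2f1, Kif2c and Birc5. Their means were 11.8 counts for E2f1, 27.6 for Kif2c and 155.1 for Birc5, against at least 385.9 counts for each of the other kept members. Fold changes of E2f1 and Kif2c rest on few counts wherever they are named below.

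The deleted genes checked the labels in 1 of the 6 comparisons of KO with WT. Pkd2 was lower in the P7 KO libraries of its model by a log2 fold change of -0.29 ± 0.05 (SE, adjusted p = 0.0122), at 269, 261 and 276 CPM (counts scaled to the size of the library) against 334, 335 and 318 CPM in WT. Pkd1 did not pass the test on any day, with log2 fold changes of -0.20, -0.07 and 0.10 in order of age. Transcripts from the Y chromosome showed that the sexes were not balanced between groups. For Pkd1, at P7 they were present in 3 of 3 KO libraries and in 0 of 3 WT libraries, so sex and genotype cannot be told apart there. For Pkd2, at P7 they were present in 3 of 3 KO and 2 of 3 WT libraries.

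Promoters are shown here for the members that were higher in P7 KO kidneys of both models, to show which of the sequence elements searched each of them holds. Of those 7 genes, 6 had an entry in the RefSeq promoter table (build GRCm38.p6). Each line gives 150 bases before and 30 bases from the annotated start. Capitals mark the cell cycle homology region (CHR), searched as TTTGAA or TTTAAA, and the E2F site, searched as TTTGGCGC, TTTCCCGC, TTTGCCGC or TTTCGCGC, on either strand.
Cdk1 (chr10:69352883-69353062, minus strand): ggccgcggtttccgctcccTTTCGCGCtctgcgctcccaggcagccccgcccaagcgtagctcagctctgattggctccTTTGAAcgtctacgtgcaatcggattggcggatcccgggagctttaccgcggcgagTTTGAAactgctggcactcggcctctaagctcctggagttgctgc
Plk1 (chr7:122159285-122159464, plus strand): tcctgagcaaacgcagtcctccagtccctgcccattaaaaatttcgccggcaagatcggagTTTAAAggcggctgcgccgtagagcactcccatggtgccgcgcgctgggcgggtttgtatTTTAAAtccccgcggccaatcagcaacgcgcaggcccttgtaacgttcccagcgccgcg
Cdca8 (chr4:124936888-124937067, minus strand): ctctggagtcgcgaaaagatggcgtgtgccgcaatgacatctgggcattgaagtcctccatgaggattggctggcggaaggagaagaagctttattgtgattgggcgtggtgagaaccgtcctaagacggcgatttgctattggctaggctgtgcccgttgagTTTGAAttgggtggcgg
Kif23 (chr9:61946770-61946949, minus strand): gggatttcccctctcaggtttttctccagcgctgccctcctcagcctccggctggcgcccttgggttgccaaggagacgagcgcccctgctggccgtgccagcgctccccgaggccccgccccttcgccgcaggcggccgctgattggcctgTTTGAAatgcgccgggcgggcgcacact
Mcm3 (chr1:20820283-20820462, minus strand): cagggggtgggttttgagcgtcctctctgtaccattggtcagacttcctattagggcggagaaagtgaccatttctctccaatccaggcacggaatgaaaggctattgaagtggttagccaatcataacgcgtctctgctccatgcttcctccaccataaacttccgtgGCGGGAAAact
Pcna (chr2:132253151-132253330, minus strand): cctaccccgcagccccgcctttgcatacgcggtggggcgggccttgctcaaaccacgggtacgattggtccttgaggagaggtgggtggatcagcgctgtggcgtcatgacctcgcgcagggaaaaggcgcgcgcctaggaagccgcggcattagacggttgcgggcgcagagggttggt

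With the annotated start as position 0, Cdk1 held CHR letters at -71 and -15 and E2F letters at -131, Plk1 held CHR letters at -89 and -29, and Kif23 and Cdca8 held them just past the start, at 2 and 13. Mcm3 held E2F letters at 19 and no CHR in the stretch printed, and Pcna held neither. CCAAT letters, which are not in capitals, were present in all 6 lines. Over the full 300-base windows, 26 of the 32 kept members had an entry, with 27 windows between them. A CHR was present in 20 of the 27 windows (74.1%), against 27.6% of the 32851 windows of all genes. The CCAAT box, searched as CCAAT on either strand, was present in 21 windows (77.8%), against 37.4% of all, and the E2F letters in 4 windows (14.8%), against 2.26% of all. In the P7 comparison of KO with WT, the median log2 fold change of the 20 genes with a CHR was 0.29 for Pkd1 and 0.62 for Pkd2, and that of the 6 genes without was 0.24 and 0.43. These matches are descriptions of the windows and were not tested.

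In WT kidneys the members stayed near their P1 level at P3 and then fell by about 1 log2 unit to P7. Between P1 and P3 none of the 32 members passed the test in either model. The test was the quasi-likelihood test of edgeR at an adjusted p of 0.05 (Benjamini-Hochberg, over all transcripts), and it called 0.12% of all transcripts for Pkd1 and 0.0317% for Pkd2. At an unadjusted p under 0.05 there were 4 members for Pkd1 and 6 for Pkd2, among 1506 of 12527 and 1890 of 12633 transcripts. DESeq2 called 1 and 2 members, among 207 and 331 transcripts. The median log2 fold change over the members was -0.07 in Pkd1 WT and 0.27 in Pkd2 WT, with 14 and 30 of the 32 members above 0. The 3 highest values were those of Anln, Cenpf and Kif11 in Pkd1 WT, at 0.32, 0.26 and 0.23, and of Rrm2, Pcna and Ube2c in Pkd2 WT, at 0.48, 0.48 and 0.44. The lowest were those of Kif2c, Ccne1 and Mcm7 in Pkd1 WT, at -0.65, -0.45 and -0.39, and of Cenpe, Cenpf and Cdc20 in Pkd2 WT, at -0.02, 0.00 and 0.06. In Pkd1 WT the values of the 32 members had a Spearman correlation of 0.58 with transcript length and -0.54 with GC content. Over 12445 transcripts these were 0.25 and -0.22, and the named values are not corrected for either. From P3 to P7, 28 members fell in Pkd1 WT, where 5.27% of all transcripts were called lower, and 31 fell in Pkd2 WT, where 10.6% were. The medians were -0.78, with a range of -1.35 to -0.40, and -1.21, with a range of -2.00 to -0.60, while the median over all transcripts was 0.02 and 0.01. The count in Pkd1 WT was 17 without P3 replicate 1. Y chromosome transcripts were present in 3 of 3 Pkd1 WT libraries at P3 and 0 of 3 at P7, so sex and age cannot be told apart in that comparison. Among members that passed, the largest falls were those of Top2a, Ccnb1 and Kif11 in Pkd1 WT, at -1.35, -1.26 and -1.24, and of Kif2c, Ube2c and Ccnb1 in Pkd2 WT, at -2.00, -1.61 and -1.59, where Kif2c had 14, 3 and 15 counts at P7. The smallest were those of Mcm6, Gmnn and Foxm1 in Pkd1 WT, at -0.47, -0.48 and -0.60, and of Ccnd1, Mcm6 and Pcna in Pkd2 WT, at -0.60, -0.66 and -0.80. The Spearman correlation of the member values from P3 to P7 in Pkd1 WT was -0.45 with transcript length and 0.37 with GC content. In bulk tissue a smaller share of dividing cells and less RNA per dividing cell cannot be told apart.

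Values per library are given for Mki67 (NM_001081117, chromosome 7), Top2a (NM_011623, chromosome 11), Ccnb1 (NM_172301, chromosome 13), Cdk1 (NM_007659, chromosome 10), Pcna (NM_011045, chromosome 2) and Ccnd1 (NM_007631, chromosome 7). Mki67 encodes the Ki-67 protein that coats mitotic chromosomes and marks cycling cells. In Pkd1 WT it stood at 502, 561 and 555 CPM at P1, 583, 543 and 605 CPM at P3, and 293, 275 and 233 CPM at P7. In Pkd2 WT it stood at 325, 436 and 446 CPM at P1, 449, 440 and 533 CPM at P3, and 214, 244 and 163 CPM at P7. The P7 libraries lay below every P1 and P3 library of the same model. Top2a, the topoisomerase that untangles sister chromatids, gave the same order, with 485, 441 and 491 CPM at P3 and 227, 206 and 123 CPM at P7 in Pkd1 WT, and 404, 379 and 494 CPM at P3 and 189, 180 and 117 CPM at P7 in Pkd2 WT. In each model WT replicate 3 was the lowest P7 library for both genes. Ccnb1, the cyclin that carries Cdk1 into mitosis, fell to 42.8% of its P1 mean in Pkd1 WT and to 37.5% in Pkd2 WT by P7.

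**Figure D1:**
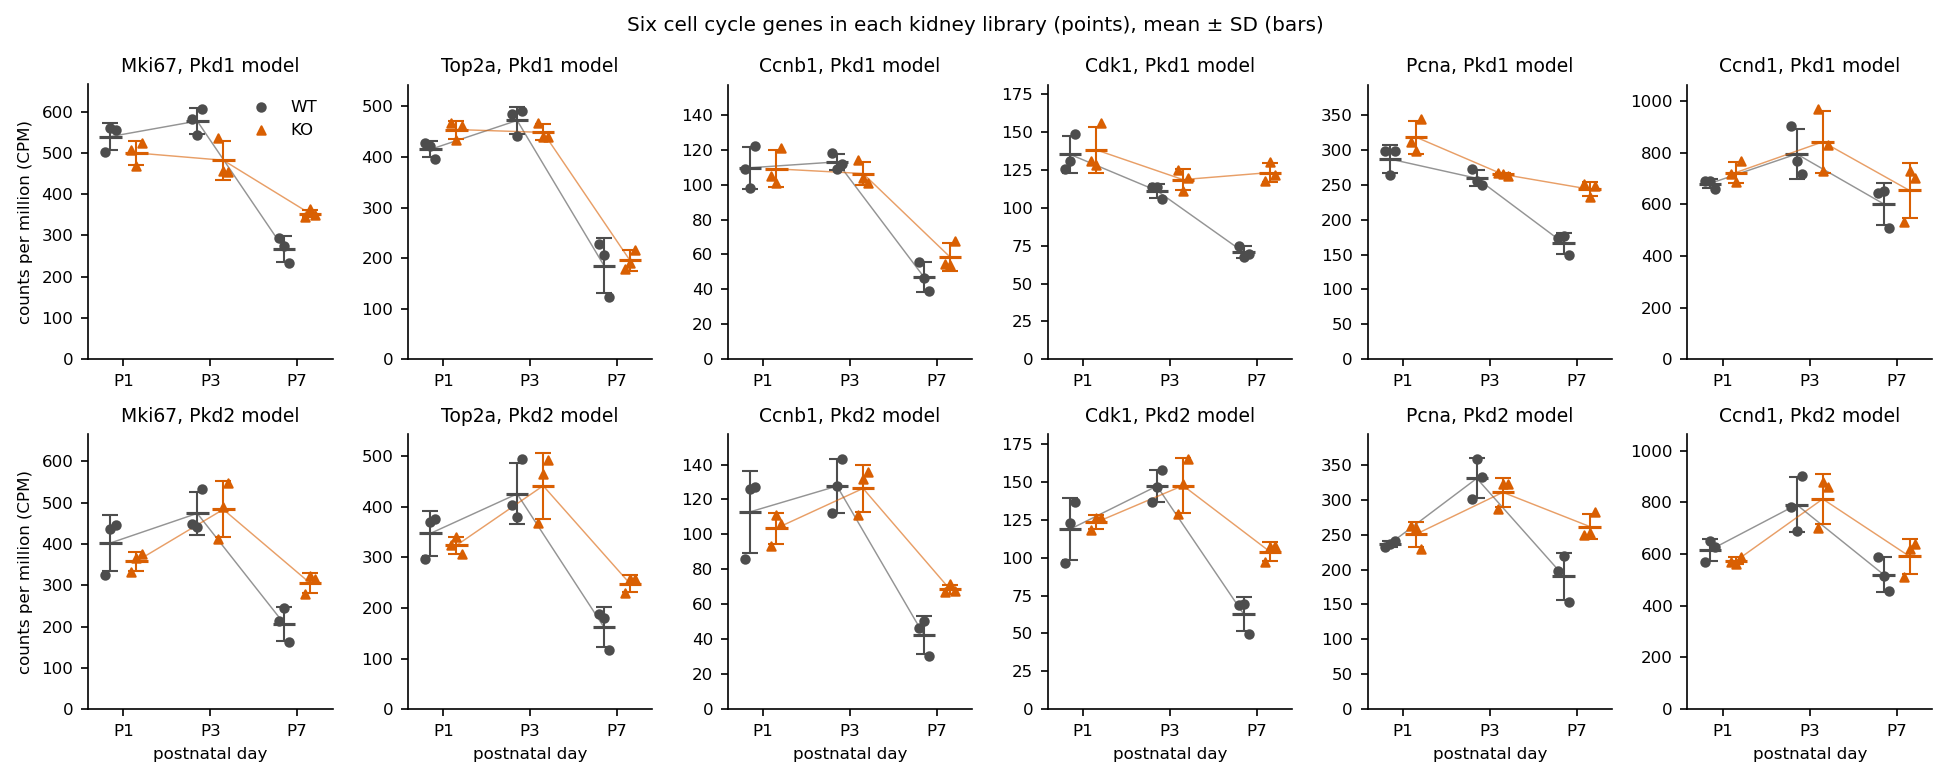
CPM (vertical axes, from 0) of 6 members against postnatal day for Pkd1 (upper row) and Pkd2 (lower row), with each library as a point and the mean ± SD of 3 libraries as bars, WT in grey circles and KO in orange triangles. Cdk1 was at 118, 130 and 122 CPM in Pkd1 KO at P7 and at 75.1, 67.3 and 69.6 CPM in WT, while Ccnd1 overlapped between genotypes on every day.

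The fall was counted by role. From P1 to P7, 28 members were lower in Pkd1 WT, where 9.07% of all transcripts were, and 28 were lower in Pkd2 WT, where 10.2% were. Y chromosome transcripts were present in 2 of 3 libraries at P1 and 0 of 3 at P7 in Pkd1 WT, and in 1 of 3 and 2 of 3 in Pkd2 WT. The part of sex in these falls was not tested. The median member stood at 54.8% of its P1 level in Pkd1 WT and at 52.6% in Pkd2 WT. Among the replication genes, 7 of 7 fell in Pkd1 WT and 6 of 7 in Pkd2 WT. The helicase subunit Mcm7 had the largest fall of this group in Pkd1 WT (log2 fold change -1.11 ± 0.10, adjusted p = 0.000227) and Mcm3 in Pkd2 WT (-0.86 ± 0.13, adjusted p = 0.00321). Rrm2, the regulated subunit of ribonucleotide reductase, fell by 0.72 and by 0.48 on the log2 scale. Of the 3 G1 to S members, Ccne1 fell in both models, and E2f1 and Ccnd1 passed in neither. All 5 members of the group of cyclin A, the B cyclins, Cdk1 and Foxm1 fell in both models, with medians of -0.73 and -0.93.

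Of the 6 mitotic kinases and checkpoint genes, 5 fell in Pkd1 WT and 6 in Pkd2 WT, with Aurkb, the kinase of the chromosomal passenger complex, at -0.98 ± 0.13 and -1.05 ± 0.18. The anaphase factors Cdc20 and Ube2c fell in both models. Among the spindle motors and kinetochore genes, Cenpe, the motor that brings chromosomes to the spindle equator, fell by 1.03 and by 1.29 on the log2 scale, and Kif11, the motor that pushes spindle poles apart, by 1.00 and by 1.30. Among members that passed, the 3 largest falls were those of Kif2c, Ccne1 and Ccnb1 in Pkd1 WT, at -1.62, -1.23 and -1.22, and of Ccnb1, Kif11 and Cenpe in Pkd2 WT, at -1.41, -1.30 and -1.29. Kif2c had 39, 35 and 15 counts at P1 and 18, 15 and 11 at P7 in Pkd1 WT. The 3 smallest were those of Mcm6, Ccna2 and Foxm1 in Pkd1 WT, at -0.57, -0.66 and -0.66, and of Mcm6, Rrm2 and Gmnn in Pkd2 WT, at -0.39, -0.48 and -0.48.

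Ccnd1, the cyclin that links growth signals to entry into the cycle, did not pass from P1 to P7 in WT of either model. It was the most counted member, and per transcript length it was near Pcna at the top of the set, with means of 182 RPKM for Ccnd1 and 189 RPKM for Pcna in Pkd1 WT at P1. It stood at 691, 690 and 660 CPM at P1 and 645, 653 and 507 CPM at P7 in Pkd1 WT, and at 568, 651 and 627 CPM at P1 and 590, 516 and 457 CPM at P7 in Pkd2 WT. The ranges of P1 and P7 overlapped in Pkd2 WT and did not in Pkd1 WT, and the log2 fold changes of -0.18 ± 0.12 and -0.24 ± 0.12 did not pass the test (adjusted p = 0.355 and 0.19). Its P3 to P7 change passed in Pkd2 WT, at -0.60 ± 0.12 (adjusted p = 0.0106). Across the 18 libraries of a model, the correlation of a member with the median of the other members ran from 0.65 for Ube2c to 0.97 for Top2a and Ccnb1 for Pkd1, and from 0.66 for E2f1 to 1.00 for Kif11 for Pkd2. For Ccnd1 it was 0.76 for Pkd1 and 0.78 for Pkd2. These libraries share day and genotype, so the values describe joint movement over the groups.

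In KO kidneys the fall from P1 to P7 was smaller in its median. In Pkd1 KO, 24 members fell, with a median log2 fold change of -0.57, where 21.2% of all transcripts were called lower. In Pkd2 KO, 10 members fell, with a median of -0.26, where 11.7% were. In KO of each model 0 of 3 libraries at P1 and 3 of 3 at P7 carried Y chromosome transcripts, so sex and age cannot be told apart in either of these comparisons. The median member stood at 67.3% of its P1 level in Pkd1 KO and at 83.3% in Pkd2 KO. For Pkd2, every member had a log2 fold change nearer to 0, or above it, in KO than in WT, and Pcna, Ccnd1 and Anln lay slightly above 0, at 0.06, 0.04 and 0.06. The members that fell in Pkd2 KO were Mcm4, Mcm7, Ccnb1, Plk1, Bub1b, Cdc20, Kif11, Cenpe, Cenpf and Top2a, with the largest falls for Ccnb1, Cenpe and Bub1b, at -0.59, -0.57 and -0.49, and the smallest for Mcm4, Plk1 and Mcm7, at -0.35, -0.38 and -0.39. The count was 6 without P1 KO replicate 2 or without P7 KO replicate 1.

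The Pkd1 KO members were less uniform. Plk1, the kinase that times mitotic entry and exit, was at 0.04 ± 0.10 in Pkd1 KO between P1 and P7, Kif23, the motor of the central spindle, was at -0.02 ± 0.08, and Ube2c was at -0.10 ± 0.23. None of these passed the test in KO, and all 3 fell in Pkd1 WT. Top2a, in contrast, fell by 1.22 on the log2 scale in Pkd1 KO and by 1.16 in Pkd1 WT, and Kif11 by 1.12 and by 1.00. The 3 largest falls in Pkd1 KO were those of Kif2c, E2f1 and Top2a, at -2.22, -2.19 and -1.22, where Kif2c and E2f1 rest on few counts. The 3 smallest were those of Foxm1, Pcna and Ccna2, at -0.31, -0.39 and -0.42.

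**Figure D2:**
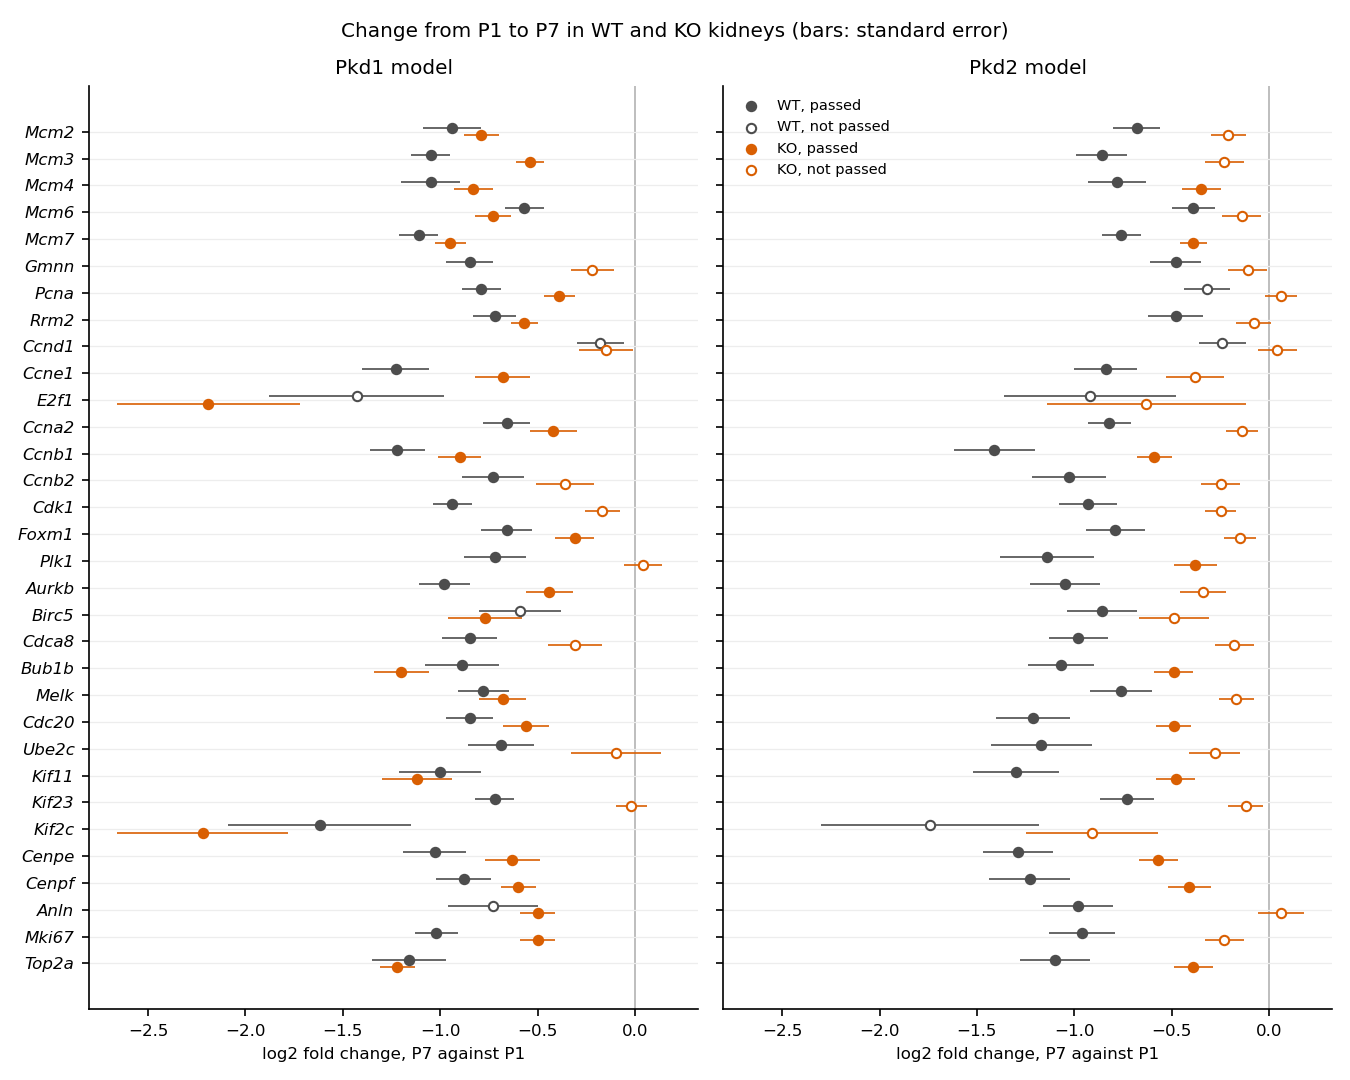
Log2 fold change from P1 to P7 (horizontal axis) of each of the 32 members for Pkd1 (left) and Pkd2 (right), WT in grey and KO in orange, with standard errors as bars and filled circles where the adjusted p was below 0.05. For Pkd2, the KO points lie nearer to 0 than the WT points, with medians of -0.26 and -0.92, and for Pkd1 the medians were -0.57 and -0.87.

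**Figure D3:**
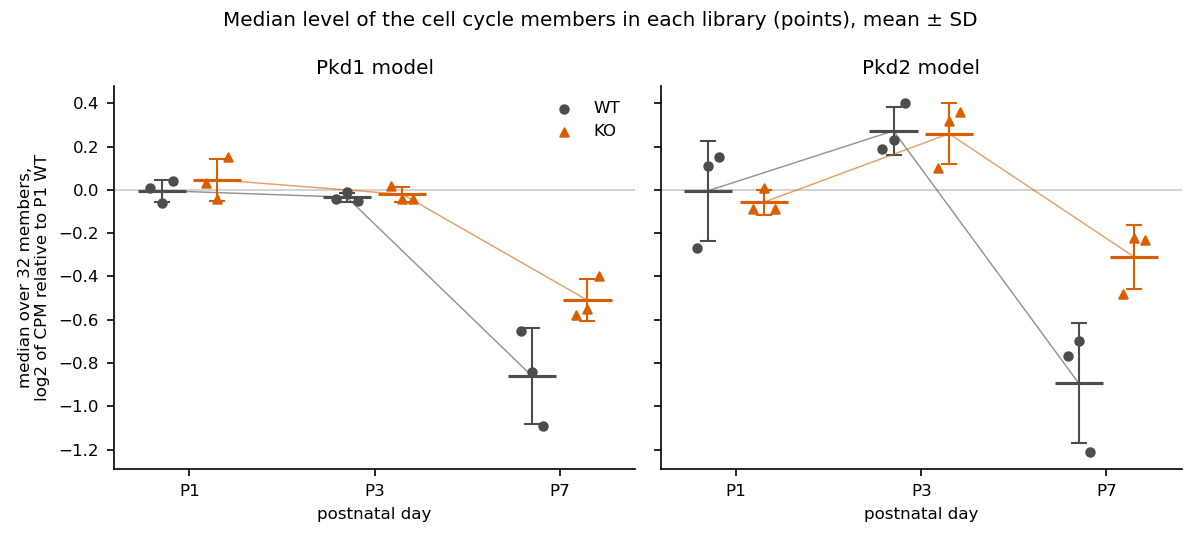
Median over the 32 members of the log2 CPM relative to the P1 WT mean of the model (vertical axis) in each library (points) by postnatal day, with the mean ± SD of 3 libraries, WT in grey and KO in orange. At P7 the Pkd2 WT libraries lie at -0.77, -0.70 and -1.21 and the KO libraries at -0.48, -0.22 and -0.23, and the Pkd1 WT libraries at -0.65, -0.84 and -1.09 and the KO libraries at -0.58, -0.55 and -0.40.

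KO and WT kidneys did not differ detectably in these genes before P7. At P1, 0 members passed in either model with edgeR or DESeq2, and 0 had an unadjusted p under 0.05 with edgeR. Over all transcripts edgeR called 0% in each model, and DESeq2 called 2 for Pkd1 and 33 for Pkd2. An unadjusted p under 0.05 was found for 161 of 12527 and 708 of 12633 transcripts. Y chromosome transcripts were present at P1 in 0 of 3 KO and 2 of 3 WT libraries for Pkd1, and in 0 of 3 and 1 of 3 for Pkd2. At P3, 0 members passed with edgeR in either model, where 0.00798% of all transcripts were called for Pkd1 and 0% for Pkd2. DESeq2 called 1 member at P3 for Pkd1 and 0 for Pkd2, among 248 and 38 transcripts. At an unadjusted p under 0.05 there were 7 members and 1 member, among 1767 of 12527 and 563 of 12633 transcripts. The median log2 fold changes were 0.07 at both days for Pkd1, and -0.05 at P1 and 0.00 at P3 for Pkd2. The highest values at P1 were those of E2f1, Birc5 and Ube2c for Pkd1, at 0.44, 0.33 and 0.27, and of Ccne1, Birc5 and Pcna for Pkd2, at 0.18, 0.09 and 0.08, and the lowest those of Kif2c, Mki67 and Cenpf for Pkd1, at -0.21, -0.11 and -0.09, and of E2f1, Kif2c and Cenpe for Pkd2, at -0.54, -0.36 and -0.27. At P3 the highest were those of Plk1, Kif2c and Cdc20 for Pkd1, at 0.34, 0.31 and 0.24, and of Kif23, Cenpe and Cenpf for Pkd2, at 0.19, 0.14 and 0.12, and the lowest those of Cenpf, Mki67 and Cenpe for Pkd1, at -0.27, -0.26 and -0.21, and of E2f1, Mcm2 and Pcna for Pkd2, at -0.15, -0.10 and -0.09. At P3 the log2 fold change of the 32 members had a Spearman correlation with GC content of 0.68 for Pkd1 and -0.39 for Pkd2. With transcript length it was -0.38 and 0.53. At P7 the median was 0.30 for Pkd1, with a range of -0.81 to 0.85, and 0.57 for Pkd2, with a range of -0.25 to 0.96.

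**Figure D4:**
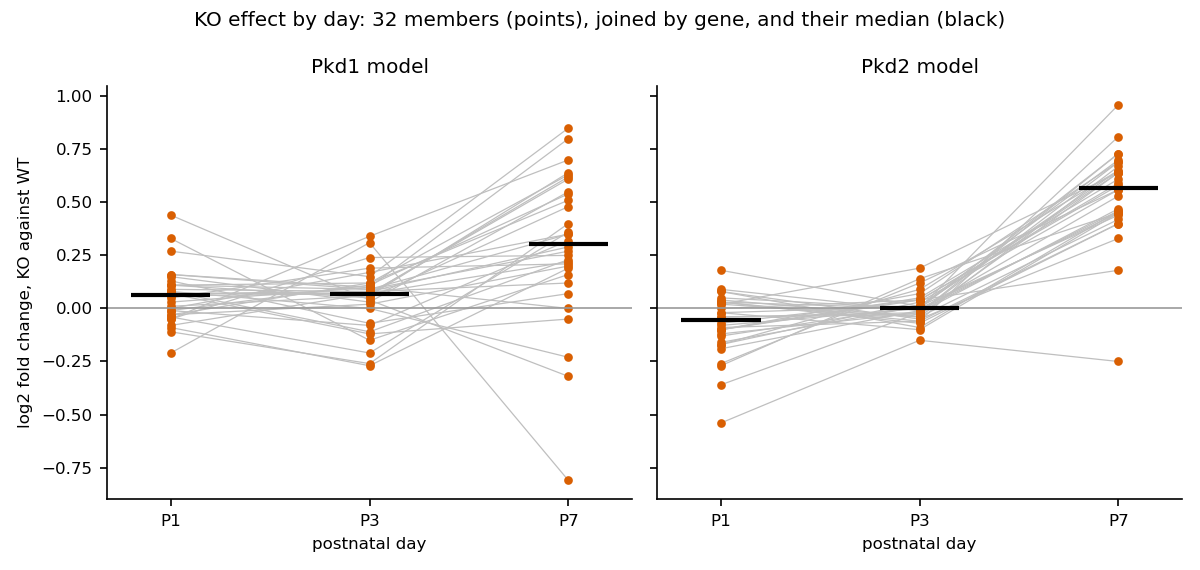
Log2 fold change of KO against WT (vertical axis) of each of the 32 members (points, joined by gene) at P1, P3 and P7 for Pkd1 (left) and Pkd2 (right), with the median as a black bar. For Pkd1 the medians were 0.07, 0.07 and 0.30, and for Pkd2 they were -0.05, 0.00 and 0.57.

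At P7, 9 members were higher in Pkd1 KO and 19 in Pkd2 KO, and none was lower in either. The share of all transcripts called higher was 6.2% for Pkd1 and 7.82% for Pkd2. The genes higher in both models were the helicase subunit Mcm3, the polymerase clamp Pcna, the mitotic kinases Cdk1, Plk1 and Aurkb, the passenger complex member Cdca8, and Kif23, which makes 7 genes, or 77.8% of the Pkd1 list and 36.8% of the Pkd2 list. The overlap between the models over all transcripts was not counted, so these shares have no background to be set against. Gmnn, the inhibitor of a further round of replication licensing, and Ube2c passed in Pkd1 KO alone. Mcm2, Mcm7, Ccne1, Ccna2, Ccnb1, Ccnb2, Foxm1, Melk, Cenpf, Anln, Mki67 and Top2a passed in Pkd2 KO alone. The difference between the models was tested separately and is given further on.

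Cdk1 had one of the clearest separations. For Pkd1, at P7 it stood at 75.1, 67.3 and 69.6 CPM in WT and 118, 130 and 122 CPM in KO, a log2 fold change of 0.80 ± 0.11 (adjusted p = 0.00702). For Pkd2, it stood at 68.9, 69.2 and 49.9 CPM in WT and 97.1, 107 and 108 CPM in KO, a log2 fold change of 0.73 ± 0.13 (adjusted p = 0.00976). Every KO library lay above every WT library in both models, and the gene kept its call whichever of the 6 libraries was omitted, in either model. In KO the P7 level was 89.1% and 84.6% of the P1 level, against 52.4% and 52.7% in WT.

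Pcna stood at 174, 176 and 149 CPM in Pkd1 WT at P7 and at 251, 232 and 248 CPM in KO (log2 fold change 0.55 ± 0.11, adjusted p = 0.0186). For Pkd2, it stood at 198, 220 and 154 CPM in WT and 249, 253 and 283 CPM in KO (0.46 ± 0.12, adjusted p = 0.0445). The genotypes did not overlap in either model. Mcm3 reached 155% of its WT mean in Pkd1 KO and 159% in Pkd2 KO. Kif23 stood at 74.9, 63.4 and 59.2 CPM in Pkd1 WT and 92.2, 112 and 99.7 CPM in KO, and at 66.0, 67.6 and 58.6 CPM in Pkd2 WT and 86.9, 109 and 104 CPM in KO. The genotypes did not overlap in either model.

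The general proliferation markers differed less evenly. Mki67 stood at 293, 275 and 233 CPM in Pkd1 WT at P7 and 345, 363 and 350 CPM in KO, without overlap, and its log2 fold change of 0.40 ± 0.12 did not pass (adjusted p = 0.0531). For Pkd2, it stood at 214, 244 and 163 CPM in WT and 278, 322 and 315 CPM in KO and passed, at 0.56 ± 0.14 (adjusted p = 0.0322). Top2a overlapped between the genotypes in Pkd1 kidneys, at 227, 206 and 123 CPM in WT and 178, 191 and 217 CPM in KO (0.07 ± 0.21, adjusted p = 0.83), and its sign turned when WT replicate 3 was left out, at -0.15. In Pkd2 kidneys Top2a did not overlap, at 189, 180 and 117 CPM in WT and 229, 257 and 258 CPM in KO (0.61 ± 0.16, adjusted p = 0.0427).

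Ccnb1 stood at 55.9, 46.5 and 38.9 CPM in Pkd1 WT and 54.3, 53.7 and 67.8 CPM in KO at P7, which overlap (0.32 ± 0.17, adjusted p = 0.218). It stood at 46.4, 50.5 and 30.4 CPM in Pkd2 WT and 67.0, 71.4 and 67.4 CPM in KO, which do not (0.69 ± 0.17, adjusted p = 0.0326). Ccnd1 overlapped between genotypes at P7 in both models, at 645, 653 and 507 CPM in WT and 530, 729 and 701 CPM in KO for Pkd1, and at 590, 516 and 457 CPM in WT and 512, 620 and 641 CPM in KO for Pkd2, and passed in neither (adjusted p = 0.633 and 0.341). The largest differences among members that passed were those of Ube2c, Cdk1 and Plk1 for Pkd1, at 0.85, 0.80 and 0.70, and of Anln, Cdk1 and Plk1 for Pkd2, at 0.96, 0.73 and 0.73. The smallest were those of Aurkb, Pcna and Cdca8 for Pkd1, at 0.51, 0.55 and 0.61, and of Mcm7, Mcm2 and Pcna for Pkd2, at 0.40, 0.45 and 0.46.

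**Figure D5:**
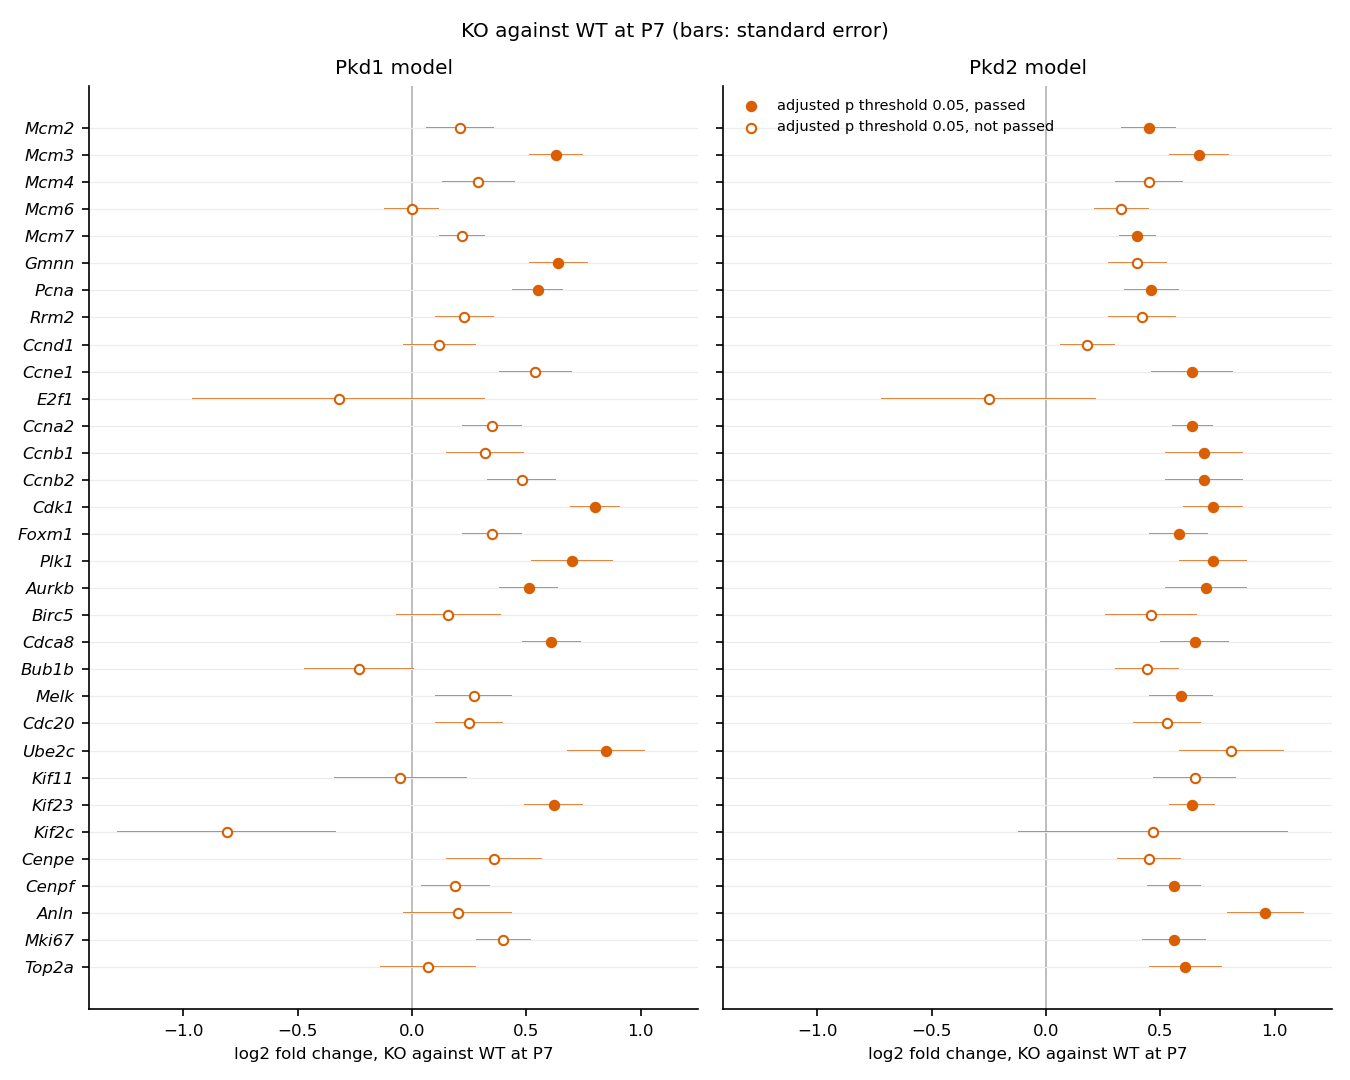
Log2 fold change of KO against WT at P7 (horizontal axis) of each of the 32 members for Pkd1 (left) and Pkd2 (right), with standard errors as bars and filled circles where the adjusted p was below 0.05. For Pkd2, 31 of 32 members lie above 0 and 19 passed, and for Pkd1 27 lie above 0 and 9 passed.

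The passes at P7 were also counted by role, with no test between roles. In Pkd2 KO all 5 of Ccna2, Ccnb1, Ccnb2, Cdk1 and Foxm1 passed, with a median of 0.69, as did 4 of 6 mitotic kinases and checkpoint genes, with a median of 0.62, and 4 of 7 replication genes, with a median of 0.45. The spindle motors and kinetochore genes had 2 passes of 5, the anaphase factors Cdc20 and Ube2c 0 of 2, and the G1 to S members 1 of 3, Ccne1. Anln, the scaffold of the contractile ring that divides the cytoplasm, had the largest change, at 45, 47.1 and 29.7 CPM in WT and 71.6, 86.6 and 79.7 CPM in KO. In Pkd1 KO 1 of the 5 cyclin, Cdk1 and Foxm1 members passed, with a median of 0.35, and 3 of 6 mitotic kinases and checkpoint genes, with a median of 0.39, and 3 of 7 replication genes, with a median of 0.29. Gmnn, at 24.4, 24.7 and 25.4 CPM in Pkd1 WT and 35.6, 39.4 and 41.1 CPM in KO, and Ube2c, at 57.0, 37.0 and 43.6 CPM in WT and 75.3, 84.1 and 89.4 CPM in KO, separated without overlap.

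Both counts depended on single libraries. Leaving out 1 of the 6 libraries in turn gave 2 to 9 members higher in Pkd1 KO, with 2 without WT replicate 1 or KO replicate 2, and 3 without KO replicate 1 or KO replicate 3. It gave 4 to 23 in Pkd2 KO, with 4 without KO replicate 2 or KO replicate 3, and 7 without WT replicate 1. Without WT replicate 3 for Pkd2, 23 members were higher, where 2052 transcripts were called in either direction. That library lacked Y chromosome transcripts and was also the lowest P7 WT library for Mki67 and Top2a. The part of sex was not tested. For Pkd1, the log2 fold change across transcripts moved with transcript length, with a Spearman correlation of -0.30 over 12445 transcripts and -0.38 over the 32 members, and for Pkd2 these were -0.05 and -0.07. With GC content and length corrected for, an alternative chosen after the data were seen, 11 members were higher in Pkd1 KO and 20 in Pkd2 KO.

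Whether the KO effect itself grew from P1 to P7 was tested as the difference between the P7 and P1 effects. The presence of Y chromosome transcripts also differed between these groups, and its part was not tested. For Pkd1, 7 members passed, all upward, where 3.66% of all transcripts did. They were Cdk1 (0.77 ± 0.13, adjusted p = 0.00349), Plk1 (0.76 ± 0.19), Kif23 (0.70 ± 0.13), Gmnn (0.63 ± 0.16), Mcm3 (0.52 ± 0.11), Mki67 (0.51 ± 0.14) and Pcna (0.40 ± 0.12). The count was 3 without P1 WT replicate 3, P1 KO replicate 2 or P7 KO replicate 2, and 4 without P1 KO replicate 1. Mki67 is thus among the genes whose KO effect grew although it did not pass at P7 alone. For Pkd2, 2 members passed, Anln (1.04 ± 0.23, adjusted p = 0.0366) and Ccna2 (0.69 ± 0.14, adjusted p = 0.0232), where 1.12% of all transcripts did. The median over the members was larger for Pkd2, at 0.66 against 0.29, and all 32 members were above 0 there. At an unadjusted p under 0.05 there were 26 members, among 1954 of 12633 transcripts. Pkd2 WT replicate 1 at P1 had lower levels than the other P1 WT libraries, with a member median of -0.27 against 0.11 and 0.15. Without it 14 members passed, where 338 transcripts were called in either direction. On all libraries DESeq2 called 15 members, among 501 transcripts. The count was 0 without P1 WT replicate 2 or 3, P1 KO replicate 3, P7 WT replicate 1 or 3, or P7 KO replicate 2 or 3, and 1 without P1 KO replicate 1 or 2 or P3 KO replicate 2. The highest values over all members were those of Anln, Ube2c and Kif2c, at 1.04, 0.89 and 0.83, and the lowest those of Mcm6, Ccnd1 and E2f1, at 0.25, 0.28 and 0.29.

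The KO effect at P7 was also compared directly between the models. Y chromosome transcripts were present in 3 of 3 KO and 0 of 3 WT libraries for Pkd1, and in 3 of 3 and 2 of 3 for Pkd2. The part of sex in this comparison was not tested. The Pkd1 effect minus the Pkd2 effect had a median of -0.17 over the members, with 28 of the 32 below 0, and 0 members passed with edgeR or DESeq2. Of the 12343 transcripts tested, edgeR called 0% and DESeq2 called 409. Without Pkd1 P7 WT replicate 3, 1 member passed, where 1449 transcripts were called. At an unadjusted p under 0.05 there was 1 member, Anln, at -0.75 ± 0.32 (adjusted p = 0.263), among 2130 transcripts. Among the genes higher in both models, the difference was 0.09 ± 0.16 for Cdk1, -0.01 ± 0.25 for Plk1, 0.00 ± 0.16 for Kif23 and -0.02 ± 0.18 for Mcm3. These genes were picked because they passed in both models on the same libraries, so small differences among them carry no separate evidence. The 3 highest differences were those of Gmnn, Pcna and Cdk1, at 0.26, 0.11 and 0.09, and the 3 lowest those of Kif2c, Anln and Kif11, at -1.26, -0.75 and -0.67. The larger number of passes for Pkd2 is therefore not a tested difference between the models.

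Other genes of the same pathways were counted from lists beside the members. Of 18 further replication genes tested, from a list of 26, 14 fell from P1 to P7 in Pkd1 WT and 13 in Pkd2 WT, with medians of -0.84 and -0.62. Of 30 further mitotic genes, from a list of 37, 24 and 26 fell, with medians of -0.87 and -0.98, and of 11 further genes of the G1 to S transition, from a list of 13, 6 fell in each model. At P7 in KO, 3 of the 18 replication genes were higher for Pkd1 and 10 for Pkd2, 6 and 15 of the 30 mitotic genes, and 2 and 4 of the 11 G1 to S genes, and none of these lists held a gene that was lower. The largest were Gins1 (1.24) of the replicative helicase, Chaf1b (0.83) of the histone chaperone that follows the fork, and Rfc3 (0.68) of the clamp loader for Pkd1, and Orc1 (1.14) of the origin recognition complex, Ticrr (0.83), which helps to fire origins, and Rrm1 and Chaf1b (0.66 each) for Pkd2. Cks1b, a small subunit of the cyclin-dependent kinases, was higher in both, at 0.93 ± 0.12 and 0.65 ± 0.08.

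Markers of other cells of the kidney moved with the same contrasts. From P1 to P7, 2 of 6 tested nephron progenitor genes were lower in Pkd1 WT and 3 of 6 in Pkd2 WT, with medians of -0.96 and -1.01, and of the 4 ureteric tip genes tested, 3 and 4 fell, with medians of -2.52 and -2.49. The summed level of the progenitor genes ran from 173 to 212 CPM in Pkd1 WT at P1 and from 56.1 to 82.4 CPM at P7. At P7 it was 56.1 to 82.4 CPM in WT and 50.8 to 63.8 CPM in KO for Pkd1, and 63.8 to 78.2 CPM in WT and 54.6 to 63.4 CPM in KO for Pkd2, and no progenitor gene passed between the genotypes. The sum pools unlike genes, as over the 36 libraries Six2 ran from 0 to 1341 counts and Meox1 from 198 to 509. Of 8 proximal tubule genes, 8 were lower in KO at P7 for Pkd1, where 7.54% of all transcripts were called lower, and 7 for Pkd2, where 6.06% were. Their summed level was 6230 to 7790 CPM in WT and 1700 to 3430 CPM in KO for Pkd1, and 6760 to 8300 CPM and 3720 to 4370 CPM for Pkd2.

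Of 4 principal cell genes tested, 3 were lower in KO at P7 in each model, Aqp2 by 2.28 and by 2.38 on the log2 scale. Of 6 macrophage and leukocyte genes, 1 was higher in Pkd1 KO and 4 in Pkd2 KO, with summed levels of 171 to 261 CPM in WT and 242 to 304 CPM in KO for Pkd1, and 192 to 234 CPM and 295 to 392 CPM for Pkd2. The markers Ptprc and Itgam of that list, and Cited1 and Eya1 of the progenitor list, had means of at most 8.9 counts and have several transcripts in the table. Of 4 ureteric tip genes at P7, Etv4 alone passed, in Pkd1 KO, at 0.96 ± 0.26. The thick ascending limb, stroma, endothelium and erythroid lists had medians of -2.22, -0.55, -0.49 and -0.60 in Pkd1 KO against WT at P7 and of -1.13, 0.09, -0.44 and -0.53 in Pkd2 KO. These medians rest on few genes. The erythroid list kept only Slc4a1 and Epor, the endothelium list Kdr, Cdh5 and Plvap, and the thick ascending limb list Slc12a1, Kcnj1 and Cldn16. Slc12a1 and Kcnj1 had means of 32.8 and 22.5 counts and have several transcripts in the table. The part of these cell types in the member differences was not tested.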

How the data were processed

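Total RNA of whole kidneys was sequenced in 36 libraries. Per the labels, the authors used CASAVA 1.8.2, TopHat2 2.1.0, the mm10 build and HTSeq (version not given in the sources used here), and deposited raw counts per RefSeq transcript, which were used as deposited. Symbols were paired with 28974 of the 29996 transcripts. Replicates were labelled by number and not by animal in the labels, so p-values measure the spread between these libraries, which may be partly technical. Libraries with and without Y chromosome transcripts occurred together in Pkd1 WT at P1 and in Pkd2 WT at P1, P3 and P7. Those groups therefore held more than 1 animal.

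Counts were tested with edgeR 4.0.16 (R 4.3.3) by the quasi-likelihood test, with TMM factors over the 18 libraries of a model (the 12 P7 libraries for the comparison of models), on transcripts that reached 10 counts in 3 or more of a model's libraries, and with Benjamini-Hochberg adjustment over all of them at 0.05. Time contrasts were fitted on the 9 WT or 9 KO libraries of a model, KO against WT on the 6 libraries of a day, and the change of the KO effect on all 18 libraries. CPM values are counts scaled to the library size with those factors, and RPKM divides them by transcript length in kilobases. The standard error is the log2 fold change divided by the square root of its F statistic. Alternatives were DESeq2 1.42.0, RLE factors, no filter, a replicate block, the rows of a gene summed, all 18 libraries in 1 fit, a 2-fold minimum, each library left out, and a GC content and length correction. The fits were tested on simulated data.

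Replicate numbers were checked as pairs by the correlation of deviations from group means. They paired only the P1 libraries of the Pkd1 model (0.39, 0.26 and 0.58), where the paired fit also called 0 members. Counts of replicate libraries differed beyond sampling noise in all 36 pairs within groups, and each was counted as 1 sample. Such differences cannot tell separate animals from separate library preparations.

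The members, role groups and marker lists were chosen with earlier results of these data known. Named genes followed a rule: every member within its role, values per library for Mki67, Top2a, Ccnb1, Cdk1, Pcna and Ccnd1 (and Mcm5, which was left out by its counts), and the 3 largest and 3 smallest fold changes among members past the threshold, or among all members where fewer than 3 passed. Library values of Kif23, Anln, Gmnn and Ube2c were added after their values were seen. Promoter sequences are RefSeq's, build GRCm38.p6, in windows of 250 bases before and 50 after the start.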

Additional observations from a re-analysis of the deposited data

Results flagged for a closer look

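For 9 results the difference between KO and WT was not the same at P1 and P7, by a test of that change itself. In the Pkd1 model these were Cdk1 (log2 change 0.77, adjusted p = 0.00349) and Kif23 (0.70, adjusted p = 0.00508), Mcm3 (0.52, adjusted p = 0.0137), Plk1 (0.76, adjusted p = 0.0247), Gmnn (0.63, adjusted p = 0.0266), Mki67 (0.51, adjusted p = 0.0305) and Pcna (0.40, adjusted p = 0.048). Cdk1, Kif23 and Mcm3 passed whichever of the 18 libraries was omitted, Plk1 in 15, Gmnn and Mki67 in 13 and Pcna in 3. In the Pkd2 model these were Ccna2 (0.69, adjusted p = 0.0232), which passed in 11 of 18 such repeats, and Anln (1.04, adjusted p = 0.0366), which passed in 8. In the Pkd1 model all 3 KO libraries and 0 of 3 WT libraries at P7 carried Y chromosome transcripts, while at P1 0 of 3 KO and 2 of 3 WT libraries did, and for Pkd2 0 of 3 KO and 1 of 3 WT libraries did at P1 and 3 of 3 and 2 of 3 at P7. The part of sex in these changes was not tested.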

How the results depend on the processing

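Of the counts of members called, 236 recomputed values stayed within 1.5 times the reported count and 34 did not, and the cause was not tested. DESeq2 called 1 member in Pkd1 WT from P1 to P3, 2 in Pkd2 WT from P1 to P3, 1 in Pkd1 KO at P3 and 15 for the change of the Pkd2 KO effect. Over all transcripts it called 207, 331, 248 and 501 in those comparisons. For Pkd1 KO at P7, 14 were called with all 18 libraries in 1 fit, where 3882 transcripts were called in either direction. With a 2-fold minimum, 0 were called at P7 in Pkd1 KO and 0 in Pkd2 KO.

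With the replicate block, 3 members were higher in Pkd1 KO at P7, 18 in Pkd2 KO at P7, and 15 fell in Pkd2 KO from P1 to P7, a hint from numbers that do not pair these libraries.

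Leaving out 1 library at a time gave 17 to 29 for Pkd1 WT from P3 to P7 (17 without P3 replicate 1), 27 to 28 for Pkd1 WT from P1 to P7, 30 to 31 and 21 to 29 for the same Pkd2 WT comparisons, 23 to 26 for Pkd1 KO and 6 to 13 for Pkd2 KO from P1 to P7 (6 without P1 KO replicate 2 or P7 KO replicate 1), 2 to 9 and 4 to 23 for KO at P7 in the Pkd1 and Pkd2 models, 3 to 10 and 0 to 14 for the change of the KO effect, and 0 to 1 for the difference between models (1 without Pkd1 P7 WT replicate 3).

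Of the log2 fold changes of named members, 1473 recomputed values kept direction and side of the threshold, 147 lost the call, 22 gained it and 13 changed sign. Those were 0.05 for Cdk1 in Pkd1 KO from P1 to P7 with the GC content and length correction; for Top2a, -0.15 and 0.00 at P7 in Pkd1 KO without WT or KO replicate 3, and for the change of the Pkd1 KO effect 0.13 with that correction and 0.11, 0.03 and 0.02 without P7 WT replicate 1, P7 WT replicate 2 or P7 KO replicate 1; for Ccnd1 in the same change -0.01, -0.08, -0.05 and -0.02 without P1 KO replicate 2, P7 WT replicate 3, P7 KO replicate 2 or P7 KO replicate 3, and -0.02 in Pkd2 KO from P1 to P7 without P7 KO replicate 3; and -0.16 for E2f1 in the change of the Pkd2 KO effect without P1 WT replicate 3. The omissions ranged from -0.15 to 0.25 for Top2a at P7, from -0.28 to 0.11 for its change, from -0.08 to 0.17 for the change of Ccnd1 and from -0.16 to 0.71 for that of E2f1. Depth limits E2f1 and Kif2c.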

Other observations

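The CDK inhibitors and pocket proteins, which hold cells out of the cycle, were counted as a further list. That list also held E2f4, E2f5, Ccng1 and Btg2, which belong to neither class. Cdkn1a, Cdkn2a, Rbl2, Trp53 and Mdm2 were left out by their counts. Of 11 genes tested, from a list of 16, 1 was higher at P7 than at P1 in Pkd1 WT and 3 in Pkd2 WT, with medians of 0.30 and 0.29, where 8.86% and 9.02% of all transcripts were called higher. The tumour suppressor Rb1 rose in WT of both models, by 0.44 ± 0.12 and 0.35 ± 0.10 on the log2 scale, and its log2 change was -0.12 ± 0.09 in Pkd1 KO and 0.11 ± 0.09 in Pkd2 KO. At P7 Rb1 was lower in Pkd1 KO than in WT (-0.50 ± 0.13, adjusted p = 0.0422), and did not pass in the Pkd2 model (-0.21 ± 0.07, adjusted p = 0.0809). Cdkn2b, the p15 inhibitor of the cyclin D kinases, had a mean of 36.9 counts and a minimum of 7. It rose from P1 to P7 in KO of both models, by 1.88 ± 0.51 and 1.89 ± 0.28. In those comparisons 2607 of 12527 and 1818 of 12633 transcripts were called higher. Cdkn2b did not pass in WT, at 0.66 ± 0.64 and 0.85 ± 0.51, and a pass in KO alone does not test the difference from WT. The difference of KO from WT at P7 was 1.28 ± 0.47 (adjusted p = 0.0959) and 1.43 ± 0.41 (adjusted p = 0.056) for Cdkn2b. Btg2, an antiproliferative gene, rose in KO of both models by 1.40 ± 0.19 and 1.17 ± 0.14, and its KO effect grew from P1 to P7 in the Pkd1 model (1.04 ± 0.25, adjusted p = 0.0223). Its change in WT is not given here. In KO of each model 0 of 3 libraries at P1 and 3 of 3 at P7 carried Y chromosome transcripts. Sex and age therefore cannot be told apart in the KO changes of these genes.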
